A study of Arabidopsis thaliana with 24 samples.

Results

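Seedlings of Arabidopsis thaliana, accession Col-0, grown on a sugar-free culture medium were compared with seedlings grown on soil. Of the 24 one-colour arrays of the series, 6 belong to this comparison: the 3 arrays titled ATGE_96 and the 3 titled ATGE_7, chosen by those titles. The soil titles end in A2, B2 and C2, and the labels do not say what the 2 stands for. In both sets biotin-labelled total RNA came from the green parts of the seedlings, and all plants stood in continuous light. Set ATGE_96 grew on a medium labelled 0.5x GM, with no sucrose listed, at 20 °C. Set ATGE_7 grew on soil at 23 °C and 65% relative humidity. A label comment on ATGE_96 describes most of its plants as similar to the 7-day-old plants of set 7, and gives no age of its own. Substrate, temperature, humidity and whatever else separates a culture vessel from a pot therefore change together, and their parts cannot be told apart here. Other sets are used beside these: ATGE_97, on the same medium and at the same temperature with 5% sucrose, ATGE_100, a further set at 20 °C on the medium without listed sucrose, and ATGE_22, ATGE_23 and ATGE_24, whole plants on soil at 23 °C and 65% relative humidity. The labels do not say that arrays of a set came from separate cultures. Each limma p-value sets a difference against the spread between arrays within sets, taken over all 24 arrays, and that spread may be technical.

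A young seedling first lives on seed reserves, whose oil is turned into sugar through the glyoxylate cycle, and then on the sugar its green tissue makes. When sugar runs short, plants are known to recycle cell contents by autophagy and to burn amino acids such as leucine. Mechanical stimulation, wounding and pathogen-derived molecules rapidly induce a partly shared set of genes for calcium-binding proteins, WRKY and zinc finger factors, ubiquitin ligases and wall-modifying enzymes. Anthocyanins, pigments made from flavonoid precursors, are among the products that seedlings vary most with light, sugar and nutrients.

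Values are intensities on the linear scale of the deposited table. Differences are log2(intensity + 7) on medium minus the same on soil, so genes near the floor have understated differences. A probe set, the group of array probes for a transcript, was tested if at least 3 of the 24 arrays exceeded an intensity of 22.9, and was called if limma's adjusted p was under 0.05. Of 15471 probe sets tested, 10941 (70.7%) were called between the sets, 4691 (30.3%) higher and 6250 (40.4%) lower on medium. At least 2-fold differences were higher for 2072 (13.4%) and lower for 1795 (11.6%). The distribution was lopsided at its ends: 322 called probe sets were at least 8-fold higher on medium, against 29 at least 8-fold lower. The median difference was -0.12, the quartiles -0.61 and 0.45, and the extremes -5.63 and 7.44. The 3 arrays of each side did not overlap for 11556 probe sets (74.7%). With a background of this size a called gene is common, so the counts of gene groups below are read against these percentages. A gene group is described by its count and its median, with no test of the group. The lists and families were chosen with earlier results of these data known, so their counts and medians are no independent results.

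**Figure D1:**
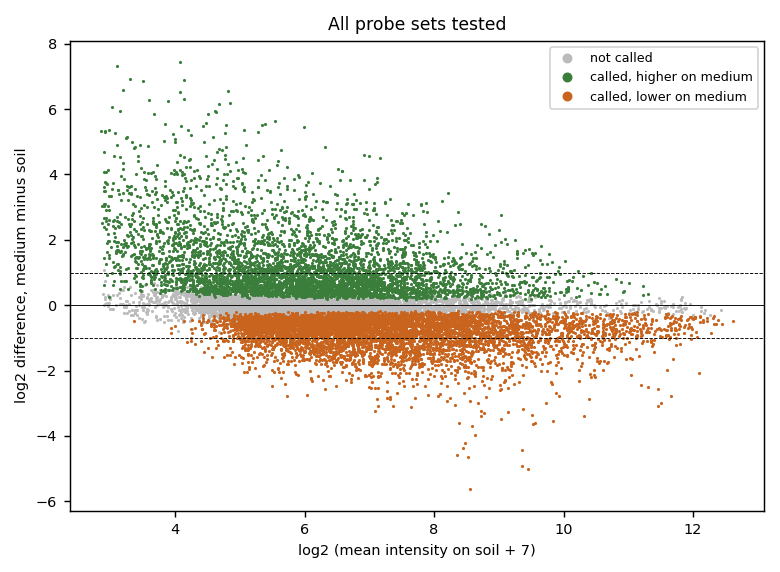
Log2 difference between medium and soil (vertical) against log2 of the mean soil intensity plus 7 (horizontal) for the 15471 probe sets tested, 1 point each. Green points were called higher and orange points lower on medium, grey points were not called, and dashed lines mark a 2-fold difference. The differences above 3 are mostly of transcripts that were dim on soil.

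The array annotation gives 1213 of the tested probe sets a gene symbol, and the largest differences among them were higher on medium. XTH18 (AT4G30280), a xyloglucan endotransglucosylase/hydrolase that cuts and rejoins wall xyloglucan, read 4.68, 1.44 and 0.487 on soil and 903, 827 and 884 on medium. All soil arrays lay under the level used for filtering and all medium arrays far above it, a log2 difference of 6.60 ± 0.375 (SE; adjusted p = 1.7e-12). EXLA1 (AT3G45970), an expansin-like wall protein, read 20.7, 17.6 and 23.7 on soil and 774, 808 and 772 on medium (4.84 ± 0.21, adjusted p = 2.4e-14). Both genes code for wall proteins. Arrays that do not overlap were a condition for naming a gene. Genes under the filter level on soil passed the filter only through other sets. Neither trait is therefore a result of its own, here or for the genes below. GAT1_2.1 (AT1G15040), a glutamine amidotransferase-like gene of the nitrogen list, stood at 1.62, 1.51 and 1.77 on soil and at 264, 250 and 235 on medium (4.89 ± 0.103, adjusted p = 1.7e-18). OSM34 (AT4G11650), an osmotin of the pathogenesis-related thaumatin family, stood at 4.16, 1.18 and 1.08 against 190, 170 and 173 (4.35 ± 0.289, adjusted p = 2e-11). On soil these transcripts were near the floor of the arrays, so the size of their differences depends on the pseudocount.

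Of the 24 loci in the list of genes of touch, calcium and rapid stress responses 13 were tested. Of the tested genes 12 were higher on medium, 0 were lower and 1 was not called, with a median of 3.60 beside -0.12 over all probe sets. The list was drawn up with earlier results of these data known, so its median is no independent result. Its TCH2, TCH3, TCH4, WRKY33 and WRKY40 had no probe set naming them alone. XTH18 and EXLA1 belong to the list. Among its transcription factors, WRKY6 (AT1G62300), known from senescence and pathogen attack, read 11.4, 15.1 and 3.27 on soil and 370, 421 and 373 on medium (4.61 ± 0.228, adjusted p = 1.8e-13). The zinc finger repressor STZ (AT1G27730) read 16.6, 17.4 and 20.4 on soil and 462, 453 and 429 on medium (4.18 ± 0.19, adjusted p = 4.7e-14). In both factors all soil arrays were under the filter level and all medium arrays far above it. WRKY22 (AT4G01250), a factor of immune signalling, differed by 3.60 and WRKY53 (AT4G23810), a regulator of leaf senescence, by 2.77. WRKY47 (AT4G01720) was higher by 1.94, and WRKY20 (AT4G26640) lower by 0.40, so that 4 of the 5 tested WRKY genes with a symbol were higher.

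The plant U-box ubiquitin ligases PUB22, PUB23 and PUB24, which mark proteins for degradation and dampen immune signalling, were all higher on medium. PUB23 (AT2G35930) read 16, 14.9 and 8.88 on soil and 354, 352 and 338 on medium (4.15 ± 0.324, adjusted p = 2.7e-10). PUB22 (AT3G52450) differed by 3.64 and PUB24 (AT3G11840) by 2.53. Of 8 tested ligases with a PUB symbol 5 were called higher and 0 lower, the others being PUB26 at 1.11 and, outside the rule for named genes, PUB43 at 0.56. Of the calmodulin-like calcium sensors, CML38 (AT1G76650) read 3.57, 7.62 and 3.11 on soil and 122, 125 and 133 on medium (3.52 ± 0.308, adjusted p = 1.6e-09), and CML42 (AT4G20780) differed by 2.29. CML23 (AT1G66400) differed by 0.64 (adjusted p = 0.014), a call lost without array A of the soil set (0.14) or array B of the medium set (0.066). CML37 (AT5G42380) was dim in both sets and was not called (0.24, adjusted p = 0.58).

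**Figure D2:**
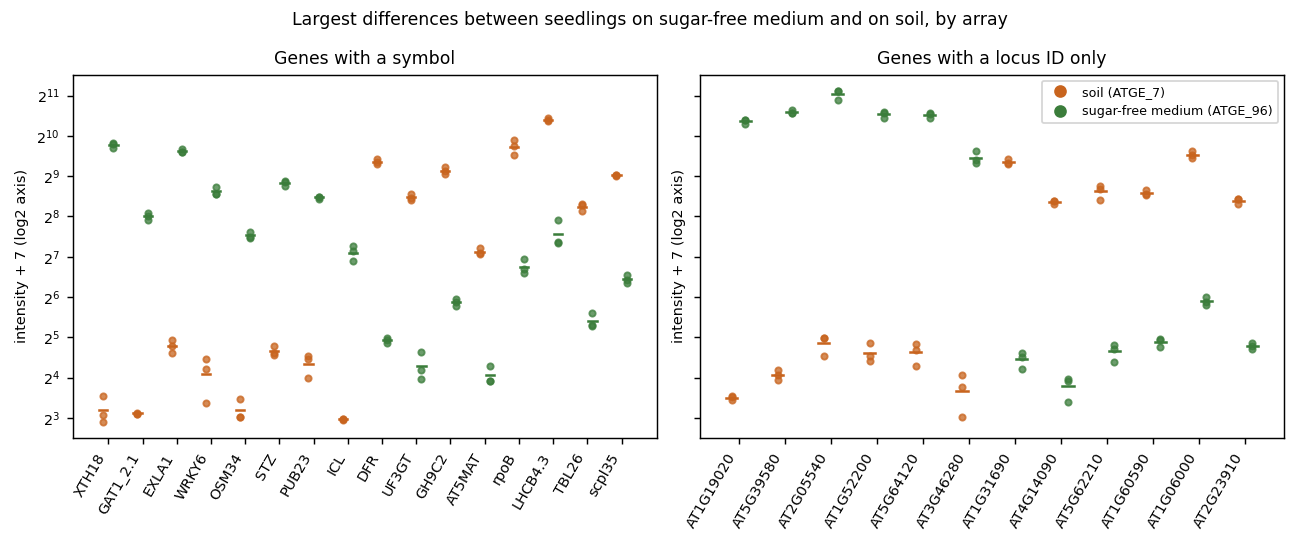
Intensity plus 7 on a log2 axis for each array of the soil set (orange) and the medium set (green), for the 8 highest and 8 lowest genes with a symbol (left) and the 6 highest and 6 lowest with a locus ID only (right). Points are arrays and short lines the mean of the 3 arrays. Arrays that do not overlap were a condition for naming a gene; the sets lie farthest apart in AT1G19020, at a difference of 6.86.

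Most wall gene families held both higher and lower members, and of those described here GH9 alone had calls in 1 direction. Of 7 tested glycosyl hydrolases of family GH9, the endoglucanases of the plant wall, 7 were lower on medium, with a median of -0.55. The call of GH9A3 (-0.48, adjusted p = 0.006) was lost without array B of the medium set (0.073). That of GH9B5 (-0.44, adjusted p = 0.018) was lost with a pseudocount of 28 (0.055) and without array A of the medium set (0.15) or array A or B of the soil set (0.09 and 0.064). Under a stricter filter 4 members remained in the test, all 4 lower, with a median of -1.93. GH9C2 (AT1G64390) read 551, 591 and 523 on soil and 47.7, 51.7 and 54.5 on medium, 10.8-fold lower by the means (-3.27 ± 0.114, adjusted p = 7.2e-16). GH9B13 (AT4G02290) differed by -2.18 and GH9B8 (AT2G32990) by -1.69, while GH9B18 (AT4G39010) differed by -0.55. Of 13 expansins and expansin-like genes, whose proteins loosen walls, 8 were lower, 3 higher and 2 not called. The lower ones included the beta-expansins EXPB3 (AT4G28250), at 219, 253 and 278 on soil and 50.2, 52.4 and 47.8 on medium (-2.17 ± 0.131, adjusted p = 4.3e-12), and EXPB1 (AT2G20750) at -2.03, with EXPA4 (AT2G39700) at -1.42 and EXLB1 (AT4G17030) at -1.33. The 3 higher ones were all of the expansin-like A group: EXLA1, EXLA3 (AT3G45960) at 1.27 and EXLA2 (AT4G38400) at 1.27, the last named here outside the rule for named genes.

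Among xyloglucan endotransglucosylase/hydrolases XTH19 (AT4G30290) was higher by 1.48 and XTH16 (AT3G23730) by 0.75, and XTH32 (AT2G36870) was lower by 0.47. Of 7 cellulose synthase-like genes 4 were higher and 3 lower. The higher call of CSLC12 was lost in 5 of 14 alternatives and the lower call of CSLC6 in 2 of 15. CSLD2 (AT5G16910), known from root hair growth, read 70, 76.7 and 82 on soil and 232, 267 and 267 on medium (1.66 ± 0.112, adjusted p = 2.5e-11), and CSLA03 (AT1G23480), of the mannan synthase group, differed by 1.44. CSLA01 (AT4G16590) of the same group went the other way, at -1.71. The 15 tested trichome birefringence-like genes, a family of wall polysaccharide acetyltransferases, gave 4 higher and 4 lower. Of the lower calls, that of TBL41 was lost in 7 of 14 alternatives. TBL26 (AT4G01080) read 308, 275 and 304 on soil and 32.4, 31.8 and 41.8 on medium (-2.85 ± 0.326, adjusted p = 1e-07), and TBL37 (AT2G34070) was higher by 1.64. Of 15 serine carboxypeptidase-like genes 11 were lower and 1 higher, with a median of -0.80. scpl35 (AT5G08260) stood at 506, 516 and 516 against 85.8, 74.4 and 79.4 (-2.58 ± 0.104, adjusted p = 6.4e-15), scpl46 (AT2G33530) differed by -1.86, and the higher one was SCPL34 (AT5G23210) at 1.57.

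Most tested transcripts known from sugar shortage were higher on the sugar-free medium. The sugar starvation and darkness list has 23 loci, of which 7 were tested. Of these 7 genes 6 were higher, 0 lower and 1 not called, with a median of 1.53. Several of the 7 belong to leucine breakdown, so the count says little of other genes known from sugar shortage. The list's ASN1, SEN1, DIN10 and PRODH1 had no probe set naming them alone. MCCA (AT1G03090), a subunit of methylcrotonyl-CoA carboxylase in leucine breakdown, read 87.9, 81.1 and 82.1 on soil and 784, 763 and 815 on medium (3.13, adjusted p = 2e-16). IVD (AT3G45300), isovaleryl-CoA dehydrogenase of the same pathway, read 45.9, 32.5 and 35.9 on soil and 335, 358 and 322 on medium (2.95, adjusted p = 1.5e-15). The lowest medium array of either gene was several-fold above its highest soil array. MCCB (AT4G34030), the other carboxylase subunit, differed by 1.54, ETFQO (AT2G43400), which passes electrons from these dehydrogenases to the respiratory chain, by 1.53, and ETFBETA (AT5G43430) by 0.80. The locus AT2G26800 of the list differed by 0.54, and D2HGDH (AT4G36400) was not called (-0.09, adjusted p = 0.42).

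All 9 tested genes of the ATG8 list, the ubiquitin-like proteins that coat autophagosomes, were higher on medium, with a median of 1.46. ATG8E (AT2G45170) read 34.5, 37.8 and 40 on soil and 399, 474 and 577 on medium (3.45, adjusted p = 2.7e-13). ATG8H (AT3G06420) read 11.7, 13.5 and 12.6 on soil and 90.9, 94.2 and 88.2 on medium (2.32, adjusted p = 3.3e-13). The sets did not overlap for any of the 9, beside 74.7% of all tested probe sets without overlap. The smallest differences were 0.84 in ATG8D (AT2G05630) and 0.82 in ATG8G (AT3G60640). The glyoxylate cycle enzyme isocitrate lyase, ICL (AT3G21720), was at 0.701, 0.846 and 0.794 on soil and at 146, 135 and 111 on medium (4.14 ± 0.115, adjusted p = 2.2e-17). It is the single tested gene of the list of seed storage and oil mobilisation.

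The starch list has 23 loci, of which 5 were tested, and these 5 were lower, with a median of -1.04. APL3 (AT4G39210), from the starch-building ADP-glucose pyrophosphorylase, read 73.1, 68.5 and 55.4 on soil and 12.3, 17.9 and 11.2 on medium (-1.81, adjusted p = 1.2e-09). PWD (AT5G26570) and DPE1 (AT5G64860), of starch breakdown, differed by -1.16 and -1.04, and the branching enzyme SBE2.2 (AT5G03650) by -0.53. APL4 (AT2G21590) differed by -0.62 (adjusted p = 0.013), a call lost without array A of the soil set (0.08). The sugar transporter SWEET16 (AT3G16690) of the vacuole membrane read 21.1, 24.6 and 21.7 on soil and 152, 168 and 153 on medium (2.48, adjusted p = 3.2e-12). Of the 10 SWEET genes tested 3 were higher and 3 lower, but several of these calls were weak. That of SWEET11 (0.26, adjusted p = 0.048) was lost without any 1 of the 6 arrays (0.066 to 0.099). SWEET10 (0.80, adjusted p = 0.016) lost its call without array A of the soil set (0.41, adjusted p = 0.17) or array C of the medium set (0.064), and SWEET17 (-0.46, adjusted p = 0.011) without array A of the medium set (0.08). Of 8 aldehyde dehydrogenases 4 were lower, 2 higher and 2 not called, with a median of -0.05. The lower ones reached -0.91, in ALDH22A1 (AT3G66658). The higher ones were ALDH7B4 (AT1G54100), known from osmotic stress, by 2.2, and ALDH6B2 (AT2G14170), of valine breakdown, by 0.93.

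The set with sucrose shows where these values stood on the same medium with sugar. It shares the array set ATGE_96 with the comparison above, so its differences are not independent of it. Between ATGE_97 and ATGE_96, 5119 probe sets (33.1%) were called; 3238 (20.9%) had the higher value on sucrose medium and 1881 (12.2%) the lower. With sucrose MCCA was lower by 2.01 on the log2 scale (adjusted p = 5.9e-12), and 6 of the 7 tested genes of the sugar starvation list were lower. ICL had a mean of 29.2 ± 8.15 (SD, n = 3) with sucrose, which was between its level on soil and its level on sugar-free medium. Of the 9 ATG8 genes 1 was called, ATG8E, at 325 with sucrose, a difference of -0.54 (adjusted p = 0.021). XTH18 fell to 98.8 with sucrose (-3.06, adjusted p = 2.6e-06), and STZ was not called (0.38, adjusted p = 0.13). Of the 13 tested genes of the touch list 8 were lower with sucrose and 1 was higher, with a median of -1.04. For the sugar starvation list the median was -0.93.

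The tested genes of anthocyanin and flavonol glycoside synthesis were much lower on medium. The flavonoid and anthocyanin list has 22 loci, of which 6 were tested. Its CHS, F3H, LDOX, PAP1 and FLS1 had no probe set naming them alone. The 6 tested members were all lower, each at least 2-fold (the background is 11.6%), with a median of -3.65. This list too was drawn up with earlier results of these data known, so its count and median are no independent result. DFR (AT5G42800), dihydroflavonol reductase at the entry to anthocyanins, read 627, 676 and 649 on soil and 23.7, 24.6 and 21.9 on medium, 27.8-fold lower by the means (-4.44 ± 0.215, adjusted p = 1.3e-13). UF3GT (AT5G54060), which adds xylose to the anthocyanin glucoside, read 372, 343 and 333 on soil and 11.1, 8.67 and 17.8 on medium (-4.22 ± 0.269, adjusted p = 1.1e-11). AT5MAT (AT3G29590), an anthocyanin malonyltransferase, read 129, 142 and 128 on soil and 8.2, 8.12 and 12.6 on medium (-3.08, adjusted p = 5.5e-12). On medium these 3 transcripts were near or under the filter level in every array. The list's locus AT4G14090, which has no symbol in the annotation, stood at 325, 326 and 308 against 3.48, 8.69 and 8.02 (-4.59, adjusted p = 4.8e-12). The flavonoid glycosyltransferases UGT78D1 (AT1G30530) and UGT78D2 (AT5G17050) were lower by 2.54 and 2.17. With sucrose in the medium DFR had a mean of 31.1 and was not called against the sugar-free set (0.31, adjusted p = 0.28).

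**Figure D3:**
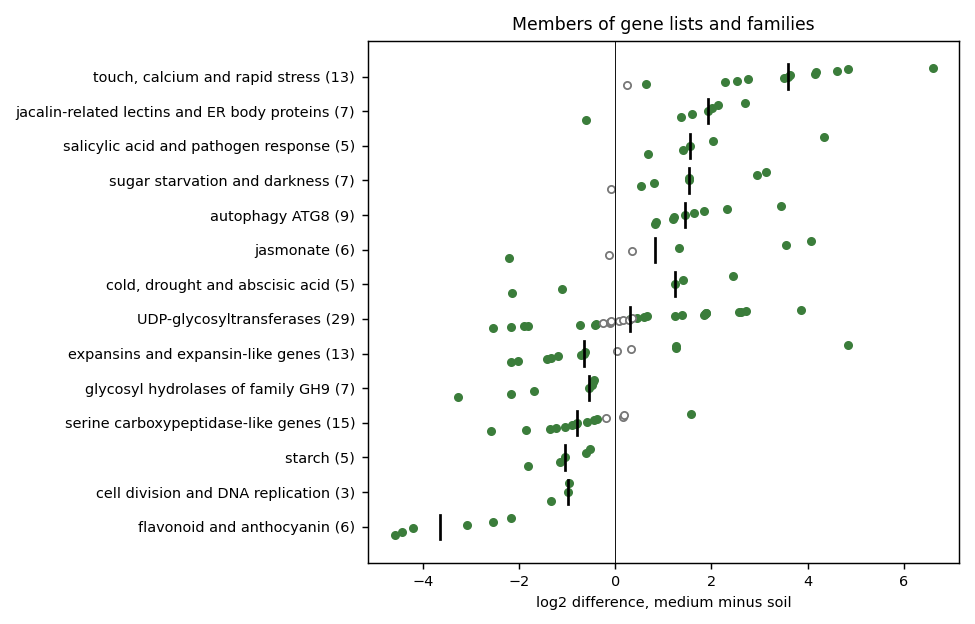
Log2 difference between medium and soil (horizontal) for each tested member of 14 gene lists and families, with the number of members in brackets. Filled points were called, open points were not, and vertical bars are medians. The touch list lies highest, with a median of 3.60, and the flavonoid list lowest, with a median of -3.65. The lists and families were chosen with earlier results of these data known.

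The tested genes of pathogen responses were higher on medium in most cases. The salicylic acid list has 21 loci, of which 5 were tested, and these 5 were higher, with a median of 1.55. Its PR1, PR2, PR5, PAD4, EDS1, ICS1 and WRKY70 had no probe set naming them alone. SAG101 (AT5G14930), a partner of the immune regulator EDS1, read 17.3, 8.19 and 13.9 on soil and 62, 84.8 and 76.5 on medium (2.03, adjusted p = 4.9e-08). The glutaredoxin GRX480 (AT1G28480) differed by 1.55 and the chitinases CHI (AT2G43570) and ChiC (AT4G19810) by 1.4 and 0.67. CHI stayed between 19 and 26.1 on medium, close to the filter level, and its call was lost with a pseudocount of 28 (0.62, adjusted p = 0.065). Of 6 tested genes of the jasmonate list, which has 25 loci, 3 were higher, 1 lower and 2 not called. PDF1.4 (AT1G19610), a defensin-like gene, read 9.27, 6.77 and 14.7 on soil and 303, 255 and 285 on medium (4.08, adjusted p = 1.1e-14). THI2.2 (AT5G36910), a thionin, read 41.5, 46.1 and 50.9 on soil and 689, 550 and 616 on medium (3.56, adjusted p = 2.1e-08). The defensin PDF1.2b (AT2G26020) differed by 1.32 (adjusted p = 0.018), a call lost without array A of the soil set (0.074). JMT (AT1G19640), which makes methyl jasmonate, went the other way, at 38.2, 41.8 and 48.2 on soil and 3.8, 3.24 and 3.79 on medium (-2.22, adjusted p = 9e-08). PDF1.2 (AT5G44420) and THI2.1 (AT1G72260) were not called (0.35 and -0.13, adjusted p = 0.42 and 0.69).

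Proteins of the ER body, a compartment of Brassicaceae that stores a defensive beta-glucosidase, formed another group. Of 7 tested jacalin-related lectins and ER body genes 6 were higher on medium and 1 lower, with a median of 1.93. PYK10 (AT3G09260), the beta-glucosidase itself, read 750, 784 and 707 on soil and 2300, 2320 and 2210 on medium (1.60, adjusted p = 2.3e-05). NAI1 (AT2G22770), the factor needed for ER bodies, differed by 1.93 and NAI2 (AT3G15950), a structural protein of them, by 2.02. The lectin JAL34 (AT3G16460) stood at 257, 241 and 188 on soil and 977, 1070 and 995 on medium, a difference of 2.13, and JAL33 (AT3G16450) differed by 2.69 (adjusted p = 1.1e-08). JAL23 (AT2G39330) was dim and lower by 0.62 (adjusted p = 0.033), a call lost without any 1 of the 6 arrays (0.052 to 0.078). PYK10 is also a marker of the root list. The other tested root marker, EXPA18 (AT1G62980), read 14, 16 and 6.27 on soil and 16.6, 13.8 and 18.6 on medium and was not called (adjusted p = 0.21), and EXPA7 did not pass the filter. The list's remaining loci had no probe set naming them alone, and the part that root tissue might play in these values was not tested.

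Enzymes that attach sugars to small molecules were split. Of 29 UDP-glycosyltransferases 14 were higher, 7 lower and 8 not called. The called share was 72.4%, beside 70.7% of all tested probe sets. UGT73B5 (AT2G15480), known from pathogen responses, read 2.26, 1.33 and 3.35 on soil and 138, 140 and 111 on medium (3.87, adjusted p = 1.6e-12). UGT72E1 (AT3G50740), which glucosylates lignin precursors, differed by 2.72, UGT73B4 (AT2G15490) by 2.61, and UGT71B6 (AT3G21780), which acts on abscisic acid, by 2.58. Of 11 cytochromes P450 of the CYP71B group 5 were higher and 2 lower (63.6% called). CYP71B23 (AT3G26210) was at 9.41, 11.3 and 12.1 on soil and 264, 250 and 221 on medium (3.81, adjusted p = 3.2e-13). The lower call of CYP71B35 was lost in 6 of 14 alternatives. Of 7 glutathione S-transferases 4 were lower and 1 higher (71.4% called), and GSTU20 (AT1G78370) differed by -1.76. The higher one, GSTU16 (0.24, adjusted p = 0.023), lost its call without array C of the medium set (0.079) or array A of the soil set (0.11). In the glucosinolate list BCAT4 (AT3G19710), of methionine chain elongation, differed by -1 and the locus AT2G31790 by -1.63, while UGT74B1 (AT1G24100) was not called (0.34, adjusted p = 0.057). Of 11 beta-glucosidases 7 were lower and 3 higher (90.9% called), from -1.79 in BGLU47 (AT4G21760) to 1.89 in BGLU46 (AT1G61820).

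Transcripts of the plastid genome, like other transcripts that were bright on soil, were more often lower than higher on medium, and the size of this depended on the scaling. Of 69 plastid genes tested 46 were lower and 2 higher, with a median of -0.43. After quantile normalization 32 were lower and 3 higher, with a median of -0.25. Plastid transcripts are among the brightest on these arrays, and the highest value of an array lay between 4900 and 5080 on medium and between 5660 and 6740 on soil; the part of this in the plastid values was not tested. Of the 500 probe sets brightest on soil, from any genome, 374 were lower and 24 higher, with a median of -0.58, a shift no smaller than that of the plastid genes. Those 500 were chosen on soil values of the same contrast, and of the 500 brightest on medium 196 were lower and 190 higher, with a median of -0.05. The plastid counts are therefore given as values, and nothing particular to the plastid is read from them. Of the 4 genes for the plastid RNA polymerase 3 were lower. rpoB, its beta subunit, read 951, 857 and 728 on soil and 89.1, 117 and 96.8 on medium, 8.36-fold lower by the means (-2.98 ± 0.147, adjusted p = 1.6e-13). rpoC2 differed by -1.47 and rpoC1 by -0.51, and rpoA was not called (-0.39, adjusted p = 0.11). Of 15 plastid ribosomal protein genes 13 were lower, 11 after quantile normalization, with a median of -0.73. rps14 read 186, 171 and 264 on soil and 43.1, 37.4 and 49.1 on medium (-2.07, adjusted p = 8.4e-09), and rpl14 differed by -1.41.

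Of 33 plastid genes for photosystems, the cytochrome b6f complex, ATP synthase and Rubisco 19 were lower, 1 was higher and 13 were not called. After quantile normalization 11 were lower and 2 higher, and without array C of the soil set 12 were lower and 1 higher. psbB, a core antenna protein of photosystem II, read 4280, 4470 and 4360 on soil and 936, 1280 and 910 on medium (-2.08, adjusted p = 8.5e-10). psbA, the D1 protein of photosystem II, was the higher one, at 1380, 1220 and 1490 on soil and 2960, 2660 and 2500 on medium (0.98, adjusted p = 5.4e-07). These photosystem II genes thus moved apart in the same arrays. psbH, psaA and psbD were lower by 1, 0.92 and 0.92. Of the plastid genes for the NADH dehydrogenase-like complex, ndhH read 1050, 824 and 780 on soil and 148, 188 and 163 on medium (-2.35, adjusted p = 2e-11), and ndhD was higher by 0.39. Of 9 nuclear genes named CRR, OTP or LPA66, which edit or splice chloroplast transcripts or assemble that complex, 9 were lower, with a median of -1.08. Under a stricter filter 5 of them remained in the test, all 5 lower, with a median of -1.34. The call of OTP70 (-0.5, adjusted p = 0.016) was lost without array A of the medium set (0.069). CRR21 (AT5G55740) read 127, 117 and 124 on soil and 27.5, 35.6 and 41.1 on medium (-1.65, adjusted p = 1.5e-10), and OTP81 (AT2G29760) differed by -1.42.

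**Figure D4:**
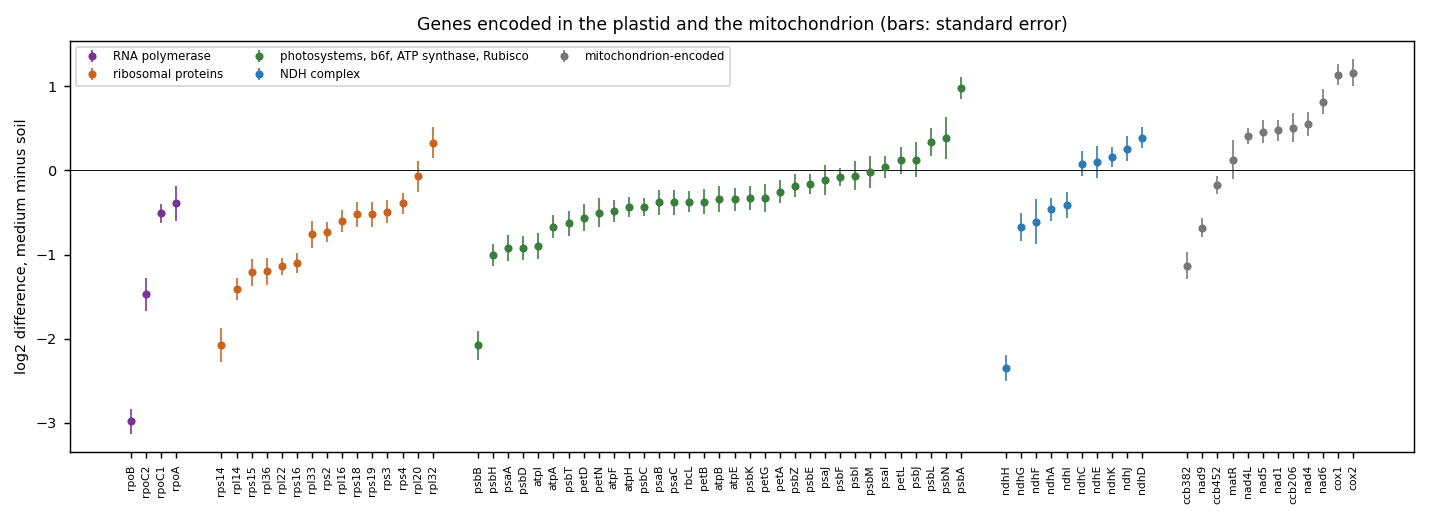
Log2 difference between medium and soil with its standard error (vertical) for each tested gene of 4 plastid groups and of the mitochondrion, sorted within groups (horizontal). In the plastid groups rpoB, ndhH, psbB and rps14 lie lowest and psbA highest at 0.98; most mitochondrial genes lie above 0, up to 1.16.

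Transcripts of the mitochondrial genome were more often higher than lower on medium. Of 12 mitochondrion-encoded genes 8 were higher, 2 lower and 2 not called, and nad5 had probe sets called in opposite directions. Of 18 mitochondrial probe sets 12 passed the stricter filter, against 69 of 69 for the plastid. The 2 genomes thus differ in signal level, and its part in their different counts was not tested. cox2, a subunit of cytochrome c oxidase, read 14.1, 11 and 14.3 on soil and 45.1, 34.9 and 34.1 on medium (1.16, adjusted p = 1.5e-06), cox1 differed by 1.14, and nad6 by 0.82. ccb382, of cytochrome c maturation, was lower by 1.13 and nad9 by 0.68. The tested nuclear genes for photosynthesis, used here as the check of green tissue, were bright in both sets, with LHCB4.3 much dimmer on medium. The list has 39 loci, of which 6 were tested, LHCB4.1, LHCB4.2 and LHCB4.3 among them. Its LHCA, LHCB1 and RBCS genes had no probe set naming them alone. The list gave 1 higher, 2 lower and 3 not called among 6, after quantile normalization 2 higher and 1 lower, and without array C of either set 0 higher and 1 lower. LHCB4.1 (AT5G01530), a minor antenna protein, read 4220, 4720 and 4850 on soil and 3890, 4040 and 3790 on medium and was not called (-0.23, adjusted p = 0.081). LHCB4.3 (AT2G40100), a variant of the same antenna protein, read 1380, 1310 and 1340 on soil and 232, 154 and 159 on medium, 7.38-fold lower by the means (-2.86 ± 0.176, adjusted p = 6.2e-12). LHCB4.2 (AT3G08940) differed by 0.32 (adjusted p = 0.044), a call lost without any 1 of the 6 arrays (0.056 to 0.13). RCA (AT2G39730), Rubisco activase, differed by -0.39 (adjusted p = 0.017), lost after quantile normalization (0.11) and without array C of either set (0.06 on medium and 0.062 on soil).

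The cell division list has 24 loci, of which 3 were tested, and these were lower on medium. Its cyclin, CDKB and PCNA loci had no probe set naming them alone. Its 3 tested members were all called: PRL (AT4G02060), the replication factor MCM7, read 159, 174 and 167 on soil and 66.4, 62.3 and 58.3 on medium (-1.33, adjusted p = 6.4e-09), and the Aurora kinases AUR1 (AT4G32830) and AUR2 (AT2G25880) differed by -0.96 and -0.98. KINESIN-12B (AT3G23670), of the cell plate apparatus, read 46.6, 43.2 and 33.1 on soil and 2.68, 4.73 and 10.1 on medium (-1.93, adjusted p = 2.1e-08). Of 4 histone H2B genes 3 were lower, with a median of -0.62: HTB1 (AT1G07790) by 1.37, HTB2 (AT5G22880) by 1.04 and HTB4 (AT5G59910) by 0.19 (adjusted p = 0.039). HTB4 lost its call in 7 alternatives (adjusted p = 0.052 to 0.12), 5 of them leaving out 1 array, and HTB11 (AT3G46030) was not called (-0.17, adjusted p = 0.12). In bulk tissue fewer cells of a type and less RNA per cell cannot be told apart. In the stomatal lineage list SPCH (AT5G53210), which starts the lineage, read 46.8, 59.8 and 60.6 on soil and 22.9, 25.1 and 16.2 on medium (-1.15, adjusted p = 0.00015). STOMAGEN (AT4G12970), a peptide that promotes stomata, differed by -0.84, and FMA (AT3G24140), of guard cell formation, was not called (0.02, adjusted p = 0.84). AGL24 (AT4G24540) of the flowering list was dim and differed by -1.11, and FD and AGL42 were not called (adjusted p = 0.78 and 0.57).

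Of 25 loci in the list of cold, drought and abscisic acid 5 were tested, 3 of them higher and 2 lower. The dehydrin COR47 (AT1G20440) read 147, 163 and 160 on soil and 876, 881 and 892 on medium (2.44, adjusted p = 3.4e-14), HIS1-3 (AT2G18050), a linker histone of drought, differed by 1.4 and the dehydrin LTI30 (AT3G50970) by 1.25. COR15A (AT2G42540), a cold-induced chloroplast protein, read 68.7, 80.1 and 80.3 on soil and 11.1, 14.3 and 9.69 on medium (-2.16, adjusted p = 2.5e-10), and COR15B (AT2G42530) differed by -1.10. Among bZIP factors, BZIP60 (AT1G42990) and BZIP28 (AT3G10800), of the unfolded protein response, differed by 2.71 and 1.33, and the related BZIP17 (AT2G40950) by -0.41. BZIP60 read 65, 72.3 and 75.6 on soil and 481, 564 and 465 on medium. CCS (AT1G12520), the copper chaperone of superoxide dismutase, read 625, 627 and 631 on soil and 120, 118 and 114 on medium (-2.35, adjusted p = 7.3e-09). RR16 (AT2G40670), a cytokinin response regulator, stood at 97.7, 89.1 and 90.5 against 16.7, 13 and 11.2 (-2.28, adjusted p = 1.3e-11). The clock gene GI (AT1G22770) differed by 0.99 and RTE1 (AT2G26070), of ethylene perception, by 1.01. Tetraspanins, small membrane proteins, gave 6 higher and 1 lower of 8. TET8 (AT2G23810) led the higher ones, at 145, 131 and 155 on soil and 1300, 1320 and 1390 on medium (3.16, adjusted p = 3.8e-14). The call of TET10 (0.3, adjusted p = 0.044) was lost in 8 of 15 alternatives. Under a stricter filter 4 tetraspanins remained in the test, 3 of them higher.

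Most tested genes carry a locus ID only, and the largest differences of single genes were among these. AT1G19020 read 3.81, 4.75 and 4.37 on soil and 1340, 1260 and 1330 on medium (6.86 ± 0.333, adjusted p = 1.3e-13). AT5G39580 read 9.7, 11.3 and 8.45 on soil and 1580, 1520 and 1500 on medium (6.52 ± 0.18, adjusted p = 2.1e-17). Both went from under the filter level to more than 1000 in every medium array. AT2G05540, AT1G52200, AT5G64120 and AT3G46280 followed, at 6.20, 5.93, 5.91 and 5.84. AT5G64120, listed with the synonym PRX71, a peroxidase, read 18.9, 21.7 and 12.6 on soil and 1510, 1490 and 1380 on medium. The lowest was AT1G31690, at 687, 633 and 621 on soil and 11.4, 15.9 and 17.3 on medium, 43.5-fold lower by the means (-4.91 ± 0.205, adjusted p = 1.3e-14); its other probe set gave -5.63. AT5G62210, AT1G60590, AT1G06000 and AT2G23910 differed by -3.98, -3.71, -3.64 and -3.61. AT1G06000 read 730, 778 and 692 on soil and 57, 49 and 51.3 on medium. Of 95 genes with several tested probe sets 6 had probe sets called in opposite directions, nad5 and SIZ1 among them, and none of the other genes described here.

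A second medium and soil contrast shares no array with the seedlings' one. It sets ATGE_100 against the mean of the whole plants ATGE_22, ATGE_23 and ATGE_24, so stage and tissue differ as well, and temperature and humidity go with the substrate as they do in the seedlings. In it 9574 probe sets (61.9%) were called, 4315 (27.9%) higher and 5259 (34%) lower. Of the 2072 probe sets at least 2-fold higher in the seedlings 1724 (83.2%) were also called higher there and 69 (3.33%) lower. Of the 1795 at least 2-fold lower 1418 (79%) were also called lower and 29 (1.62%) higher. Read the other way, 1082 of the 1210 probe sets at least 2-fold higher in the later contrast (89.4%) were called higher in the seedlings, and 497 of the 629 at least 2-fold lower (79%) were called lower. The difference between the contrasts was itself called for 7645 probe sets (49.4%), in 4154 (26.9%) toward a higher and in 3491 (22.6%) toward a lower value in the later contrast. XTH18 differed by 5.52 in the later contrast, PUB23 by 4.3, OSM34 by 4.14 and STZ by 3.61, and for these 4 genes the difference between the contrasts was not called (adjusted p = 0.07, 0.79, 0.66 and 0.06). LHCB4.3 and TBL26 differed by -2.45 and -2.01 there, again with no call on the difference (adjusted p = 0.14 and 0.11).

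**Figure D5:**
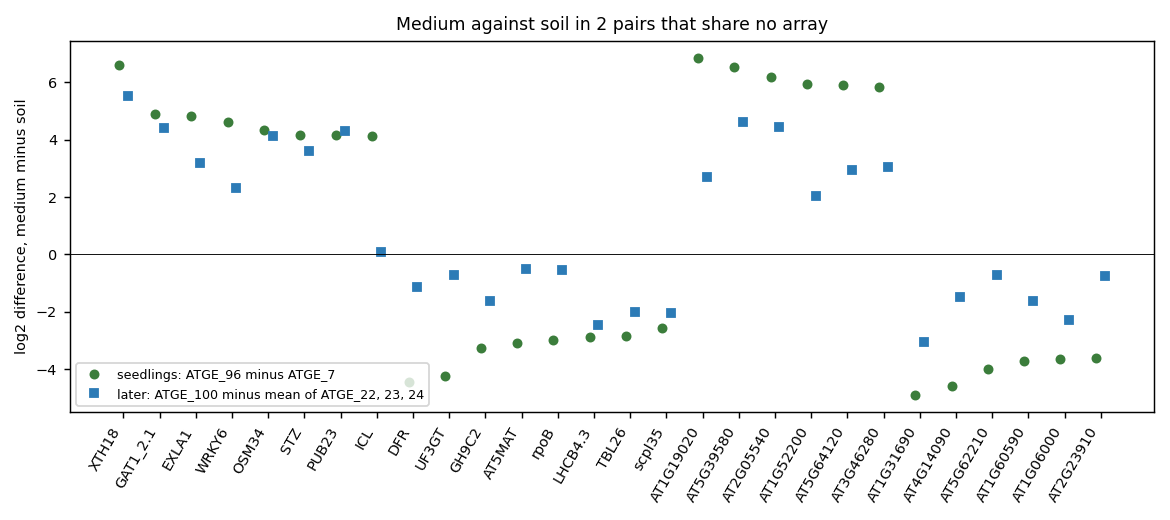
Log2 difference between medium and soil (vertical) in seedlings (green circles) and in the later contrast (blue squares) for the 28 genes named by size (horizontal). ICL is at 4.14 in seedlings and 0.10 in the later contrast, DFR at -4.44 and -1.12, and XTH18 at 6.60 and 5.52.

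Array quality values also differed between the sets. Arrays of a set correlated at 0.976 to 0.991 over probe sets, and arrays of the medium set with arrays of the soil set at 0.884 to 0.886. The median intensity was 36.1 ± 0.666 on medium and 36.2 ± 0.153 on soil (SD, n = 3; exact permutation p = 0.9). The ratio of 3′ to 5′ control signal, a measure of RNA integrity and labelling, was 1.41 ± 0.135 on medium and 0.933 ± 0.0452 on soil for GAPDH, 2.46 ± 0.223 and 3.93 ± 0.369 for ubiquitin, and 4.12 ± 1.92 and 5.96 ± 0.615 for actin (SD, n = 3). The sets did not overlap for GAPDH and ubiquitin (two-sided exact permutation p = 0.1, the smallest that 3 against 3 arrays can give) and overlapped for actin (exact permutation p = 0.3). The hybridisation control bioB, a spiked-in bacterial transcript, was at 82.6 ± 2.94 on medium and 116 ± 17.3 on soil (SD, n = 3; exact permutation p = 0.1), again with no overlap. GAPDH and ubiquitin thus differed in opposite directions, and the part of RNA quality in the gene results was not tested.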

How the data were processed

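Intensity values were used as deposited, 1 per probe set and array on a linear scale; MAS5 is the tool in the submitters' processing notes, with no version in the sources used here. The mean of each array after trimming 2% at either end came to 100, so the deposited intensities had been scaled to a common target. Of 22810 probe sets 64 controls were left out of the tests and used for quality ratios, and 15471 of 22746 passed the filter on low values (22.9, the 40th percentile). Arrays were grouped by the set number in their titles.

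Differences of log2(intensity + 7) were tested with limma 3.58.1 (lmFit, eBayes, two-sided) in R 4.3.3 with data.table (version 1.17.8), over all 24 arrays and 8 set means, with 16 residual and 4.83 prior degrees of freedom and Benjamini-Hochberg adjustment over all probe sets tested. Summary values had exact permutation tests. Figures were drawn with matplotlib 3.10.9 in Python 3.11.15, with pandas 2.3.3. On simulated data of 15471 probe sets with 50 changed at each size, 48%, 94%, 100% and 100% of log2 changes of 0.5, 1, 2 and 3 between these sets were recovered, with 9 false calls (5% of calls). The simulation used independent normal noise and changed a far smaller share of probe sets than the 70.7% called in the data. Its recovery at 0.5 and 1 therefore does not give the sensitivity in these data. The number of arrays limits the precision.

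Of the probe sets 13513 named 1 gene, 503 several and 8730 none; 13436 matched the RefSeq genes of assembly TAIR10.1, and 1580 carried a symbol. Of 481 loci in 24 gene lists 94 had a probe set naming them alone and 88 were tested; 30 families were formed from symbols. Where a gene had several probe sets, the one with the highest mean was used. Genes were named by rule: called, with arrays that did not overlap, the 8 highest and 8 lowest with a symbol and 6 and 6 with a locus ID only, plus up to 4 members of each list or family and 2 against its majority; other list members are given as values, and members of families outside the rule were chosen after their values were seen. The members, lists and families were chosen with earlier results of these data known. No sequences are shown. Alternatives were the pseudocount, filter, scaling, arrays fitted, variance model, replicate block and leaving out each array.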

Additional observations from a re-analysis of the deposited data

Results flagged for a closer look

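The difference between the later and the seedling contrast of medium against soil was tested directly, and 7645 probe sets passed (limma, adjusted p under 0.05). Among the genes named by size it was called for 22. Values are the later contrast minus the seedling contrast on the log2 scale. Of genes higher on medium in seedlings, the difference was -4.04 in ICL, -2.3 in WRKY6, -1.67 in EXLA1 and -0.49 in GAT1_2.1. For loci without a symbol it was -4.17 in AT1G19020, -3.89 in AT1G52200, -2.95 in AT5G64120, -2.78 in AT3G46280, -1.9 in AT5G39580 and -1.76 in AT2G05540. Of genes lower on medium in seedlings, it was 3.5 in UF3GT, 3.31 in DFR, 2.57 in AT5MAT, 2.43 in rpoB, 1.64 in GH9C2 and 0.53 in scpl35. For the other loci it was 3.24 in AT5G62210, 3.11 in AT4G14090, 2.86 in AT2G23910, 2.09 in AT1G60590, 1.87 in AT1G31690 and 1.36 in AT1G06000. Each of these 22 differences points toward 0 from the seedling value, and all of them were named for a large seedling value, which favours that direction. In the later contrast ICL was not called (0.10, adjusted p = 0.39).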

How the results depend on the processing

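Across the alternatives the number of called probe sets between medium and soil seedlings lay between 8687 (stricter filter) and 11564 (no filter), and between 10401 and 10489 when 1 array was left out. At least 2-fold higher calls numbered 1498 to 2279 and lower calls 1090 to 2127; the 1090 came with a pseudocount of 28, which shrinks differences of dim genes. For the sucrose, later and between-contrast comparisons the calls numbered 4068 to 6040, 7839 to 9727 and 6382 to 7911. Of 367 probe sets followed, 301 kept their direction and side of the threshold throughout, 45 lost a call somewhere and 20 gained one. Without 1 array 40 lost a call. psbF, not called, was called higher after quantile normalization (0.24, adjusted p = 0.0068). Group medians changed sign for photosynthesis (0.1, quantile normalization), trichome birefringence-like genes (0.07, stricter filter) and SWEET genes (0.22, stricter filter; -0.13 to 0.05 with 1 array left out, 0.05 without array C of the soil set); the cause was not tested. Same-letter arrays of the sets deviated with correlations of 0.01, 0.02 and 0.04, so the letters do not pair them; with the replicate block 10933 probe sets were called.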

Other observations

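Tubulins, the proteins of microtubules, were split in the seedlings on medium against those on soil. Of 7 tested genes 4 were lower, 1 higher and 2 not called. The called share was 71.4%, beside 70.7% of all tested probe sets. TUB7 (AT2G29550) read 281, 275 and 251 on soil and 156, 163 and 165 on medium (-0.71, limma adjusted p = 4.2e-06), and TUB1 (AT1G75780) differed by -0.95. The lower call of TUB9 was lost in 5 of 15 alternatives. TUA1 (AT1G64740) was the higher one, at 0.51. The subtilase SBT1.3 (AT5G51750), a protease of the cell wall space, read 344, 360 and 372 on soil and 186, 177 and 159 on medium (-1.02, adjusted p = 3.8e-07).

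Of the sulfur starvation list, the beta-glucosidase BGLU28 (AT2G44460), known to respond to sulfur shortage, differed by 1.02 and the locus AT1G04770 by -0.83, so the 2 tested members went apart. NRT2.5 (AT1G12940), a nitrate transporter known from nitrogen starvation, stayed between 10.2 and 14.1 in all 6 arrays and was not called (-0.09, adjusted p = 0.68), beside GAT1_2.1 of the same list at 4.89. Of the hypoxia list AT4G17260 differed by -0.76 and AT3G10040 was not called (0.45, adjusted p = 0.18). The wax ester synthase gene WSD1 (AT5G37300) was near the floor and differed by -1.18, and the heat shock list's AT5G48570 was not called (0.27, adjusted p = 0.11). No probe set named a locus of the phosphate starvation list alone.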
